A study of Mus musculus with 21 samples.

Results

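Osteopontin, the secreted matrix phosphoprotein encoded by Spp1, and Cd44, a cell surface receptor that binds it, were followed in liver RNA from 21 wild-type mice. The 2 genes were chosen by symbol from a table of counts for 52636 Ensembl gene IDs, and both were found and passed the filter on low counts, which left 17104 genes. Of these mice, 8 had been fed CDA-HFD for 16 weeks and 8 for 8 weeks. CDA-HFD is a high-fat diet that lacks choline and has defined amino acids, and mice kept on it develop steatohepatitis and then fibrosis. The other 5 mice had eaten normal chow for 8 weeks according to the design text, while the labels call that point week 0. All groups were wild type, and strain, sex, age and batch are not given in the labels. Since no chow livers stood beside the 16-week livers, effects of age and of the longer diet cannot be told apart there, and with no ages given, whether the chow and 8-week mice were of the same age cannot be read from the labels. The same 5 chow libraries served both comparisons with chow.

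Osteopontin belongs to the small integrin-binding glycoproteins and acts both as a part of the matrix and as a cytokine. It binds integrins through an arginine-glycine-aspartate site and through a neighbouring site that thrombin cleavage opens, and it also binds Cd44, whose main ligand is the matrix polysaccharide hyaluronan. In the liver it is known from bile duct cells, from reactive ductular cells and, in steatohepatitis, from lipid-laden macrophages, and it is known to act on hepatic stellate cells. Cd44 is found on leukocytes, stellate cells and reactive epithelium.

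Spp1 (ENSMUSG00000029304) lies on the plus strand of chromosome 5 of GRCm38, from 104435118 to 104441050, and its merged exons span 1.648 kilobases. Its 7 annotated transcripts, all coding, have 4 to 8 exons, and the counts do not separate them. The stretch that holds both integrin sites is shown because it is what the receptors and enzymes described later act on. It covers chr5:104439472-104439519 (GRCm38, plus strand) in exon 7 of 8 and was read from the GENCODE M21 transcripts, with capitals for the codons of the arginine-glycine-aspartate site and, directly after them, those of the second site, behind which thrombin is known to cut.
Spp1 integrin sites: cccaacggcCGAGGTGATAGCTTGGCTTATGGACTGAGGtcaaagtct

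Cd44 (ENSMUSG00000005087) lies on the minus strand of chromosome 2, from 102811141 to 102901665, and its merged exons span 6.776 kilobases. It has 9 annotated transcripts, 8 of them coding, with 5 to 19 exons, and variant exons were likewise not resolved by the counts. The promoters of the 2 genes are shown because both transcripts rose on the diet. They are RefSeq sequences of 300 bases on GRCm38.p6, chr5:104434861-104435160 (plus strand) for Spp1 and chr2:102901616-102901915 (minus strand) for Cd44. Capitals mark matches on either strand to TGTGGT (the core motif of Runx factors) and TATAAA (the letters of a TATA box).
Spp1 promoter: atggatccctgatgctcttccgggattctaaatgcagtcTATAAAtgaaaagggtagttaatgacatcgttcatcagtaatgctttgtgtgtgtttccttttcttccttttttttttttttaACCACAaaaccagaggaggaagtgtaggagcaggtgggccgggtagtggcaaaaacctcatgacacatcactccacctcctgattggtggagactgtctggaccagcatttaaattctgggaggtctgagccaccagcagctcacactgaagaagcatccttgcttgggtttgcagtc
Cd44 promoter: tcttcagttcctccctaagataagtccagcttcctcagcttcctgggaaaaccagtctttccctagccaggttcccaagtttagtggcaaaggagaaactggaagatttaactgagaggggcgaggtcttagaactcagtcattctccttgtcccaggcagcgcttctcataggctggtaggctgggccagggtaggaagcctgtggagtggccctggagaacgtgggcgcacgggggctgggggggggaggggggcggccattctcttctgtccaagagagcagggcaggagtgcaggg

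The Spp1 promoter held TATAAA 211 bases upstream of the annotated start and TGTGGT on the minus strand 128 bases upstream, where the plus strand reads ACCACA. No match to TGANTCA (the AP-1 motif) or CACGTG (an E-box) was found in it, and the Cd44 promoter held none of the 4 motifs. Among 32544 promoters of the same length, TGTGGT occurred in 16.7%, TATAAA in 13.6%, TGANTCA in 7.79% and CACGTG in 7.17%.

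The tissue was liver by its markers, since 5 hepatocyte transcripts, albumin among them, summed to at least 69250 CPM (counts scaled to library size after TMM adjustment) in every library. Each chow library held 33522456 to 42586342 counts, each 8-week library 29037525 to 45868842 and each 16-week library 35254088 to 48901145. Some CDA-HFD libraries also held transcripts of other tissues. A list of 10 squamous epithelium genes summed to 0.184 to 0.631 CPM on chow, where 6 of its members (Krt13, Krt5, Krt6a, Krt6b, Sprr3 and Dsg3) were at 0. The sum reached 1498 CPM in 8-week replicate 3 and 269 CPM in replicate 6, against 2.56 to 19.6 CPM in the other 8-week libraries. At 16 weeks it was 235, 73.2 and 145 CPM in replicates 1, 4 and 7, against 6.33 to 20.6 CPM in the others. Skeletal muscle transcripts reached 2519 CPM in 8-week replicate 3 and 193 to 340 CPM in the other 4 of these libraries, and also 318 CPM in chow replicate 5. Exocrine pancreas transcripts summed to 8061 CPM in 8-week replicate 4 and 381 CPM in 8-week replicate 5. In the remaining 8-week libraries they summed to 16.8 to 77.0 CPM. The part of these transcripts in the results was not tested beyond the values given without those libraries.

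Spp1 rose on CDA-HFD and rose further between 8 and 16 weeks. The 5 chow livers had 36.1, 42.6, 65.9, 46.0 and 64.0 CPM. The 8 livers at 8 weeks had a lowest value of 54.8, a median of 186 and a highest value of 440.4 CPM, and the 8 livers at 16 weeks had 403, 933 and 1379.6 CPM. The chow and 16-week livers did not overlap, whereas 8-week replicate 3 lay among the chow values, and 8-week replicate 2 lay above 16-week replicate 1. In bulk tissue, more cells of a type and more RNA per cell cannot be told apart. Between 788 and 78753 reads stood behind each value.

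At 8 weeks Spp1 averaged 194 ± 120.01 CPM on CDA-HFD and 50.9 ± 13.3 CPM on chow (SD, n = 8 and 5), 3.82-fold higher (log2 1.93, SE 0.41, edgeR adjusted p = 0.00061). Without replicate 3 the lowest 8-week value was 79.7 CPM, above every chow value, and the log2 change was 2.06 (edgeR adjusted p = 6.71e-05). At 16 weeks Spp1 averaged 868 ± 334 CPM on CDA-HFD against 50.9 ± 13.3 CPM on chow, 17.0-fold higher (log2 4.09, SE 0.46, edgeR adjusted p = 2.33e-07). At 16 against 8 weeks of CDA-HFD the level was 4.47-fold higher (log2 2.16, SE 0.34, edgeR adjusted p = 0.000257). Over the 17104 genes tested, 30.8% were called higher at 8 weeks than on chow, 29.4% higher at 16 weeks than on chow and 10.6% higher at 16 than at 8 weeks. Libraries lay wholly above those of the other group for 15.3% of genes at 8 weeks against chow and for 27.2% at 16 weeks against chow. A log2 change larger than that of Spp1 was seen in 9.23%, 2.25% and 1.25% of them in the same order of comparisons.

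Cd44 rose at 8 and at 16 weeks against chow, and no change was called between these times. The chow livers had 12.65, 10.9, 15.1, 15.2 and 20.4 CPM. The 8-week livers had a lowest value of 17.6, a median of 60.9 and a highest value of 74.9 CPM, and the 16-week livers had 60.1, 73.2 and 92.0 CPM. The 16-week livers lay above all chow livers, and at 8 weeks only replicate 3 fell inside the chow range, the other 7 having at least 42.1 CPM.

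At 8 weeks Cd44 averaged 54.2 ± 18.8 CPM on CDA-HFD and 14.8 ± 3.59 CPM on chow, 3.65-fold higher (log2 1.87, SE 0.26, edgeR adjusted p = 5.71e-06). At 16 weeks it averaged 73.3 ± 10.9 CPM on CDA-HFD against 14.8 ± 3.59 CPM on chow, 4.94-fold higher (log2 2.30, SE 0.26, edgeR adjusted p = 2.76e-07). At 16 against 8 weeks the ratio was 1.35 (log2 0.44, 95% interval 0.03 to 0.84), and no change was called (edgeR adjusted p = 0.131, and 0.048 before adjustment). Without the 5 libraries highest in squamous transcripts the log2 difference was 0.49 and was called (edgeR adjusted p = 0.0224, from 0.0224 to 0.298 over all alternatives). At 17.5%, the share of genes with a larger log2 change than Cd44 at 16 against 8 weeks was above its share in the comparisons with chow, 9.76% at 8 weeks and 10.2% at 16 weeks.

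**Figure D1:**
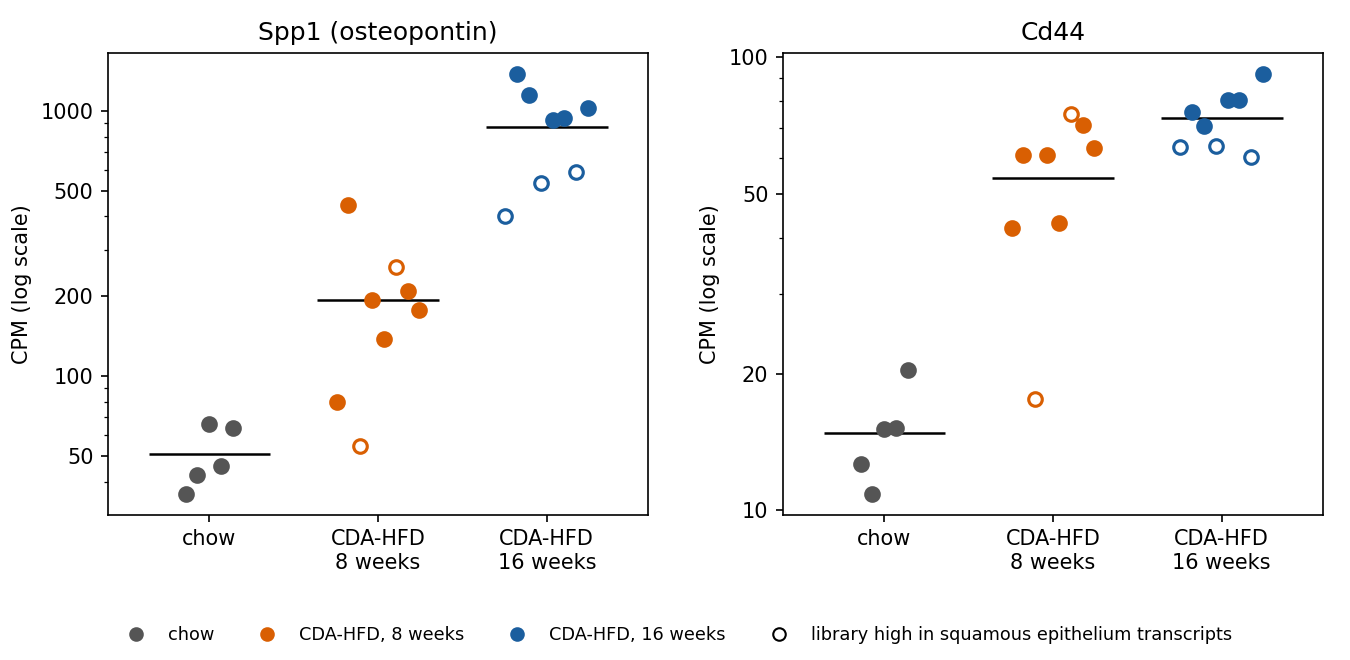
Levels of Spp1 (left) and Cd44 (right) in CPM on a log axis, with 1 point per library, a line at the group mean and open points for the 5 libraries high in squamous epithelium transcripts. Spp1 averaged 50.9, 194 and 868 CPM and Cd44 14.8, 54.2 and 73.3 CPM on chow, at 8 weeks and at 16 weeks, and the 3 open points at 16 weeks are the lowest of that group in both panels.

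Per kilobase of exon, Spp1 was the more abundant transcript in every library. It averaged 30.9, 118 and 527 CPM per kilobase on chow, at 8 weeks and at 16 weeks, where Cd44 averaged 2.19, 8.00 and 10.8 CPM per kilobase. The per-length ratio of Spp1 to Cd44 ran from 11.7 to 17.98 on chow, from 7.79 to 29.7 at 8 weeks and from 26.2 to 74.95 at 16 weeks. The ratio thus overlapped between chow and 8 weeks, and at 16 weeks it lay above all chow livers and above all 8-week livers but replicate 2. The spread between livers was wider for Spp1, with a coefficient of variation of 26.2%, 61.8% and 38.4% on chow, at 8 and at 16 weeks, against 24.2%, 34.8% and 14.8% for Cd44.

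The transcripts used to place these changes were Epcam and Krt19, an adhesion molecule and a keratin of bile duct cells, and Gpnmb and Trem2, a glycoprotein and a lipid receptor of lipid-associated macrophages. Epcam averaged 1.31 ± 0.23 CPM on chow, 4.19 ± 3.68 CPM at 8 weeks and 29.3 ± 13.6 CPM at 16 weeks, a log2 rise of 2.80 between 8 and 16 weeks (SE 0.38, edgeR adjusted p = 5.51e-05). Krt19 averaged 2.30 ± 1.0, 6.87 ± 10.3 and 15.0 ± 5.11 CPM in the same groups, and at 16 weeks it was 6.53-fold above chow (edgeR adjusted p = 0.00188). The 8-week rise of Krt19, log2 1.54 (edgeR adjusted p = 0.0494), rested on replicate 3 with 31.7 CPM and was log2 0.52 without it (edgeR adjusted p = 0.265). Without that library Krt19 rose by log2 2.18 between 8 and 16 weeks (edgeR adjusted p = 0.000154), where the value with it was 1.16 (edgeR adjusted p = 0.112).

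Gpnmb averaged 0.357 ± 0.21 CPM on chow, 553 ± 271 CPM at 8 weeks and 1230 ± 409 CPM at 16 weeks, and its log2 change at 16 against 8 weeks was 1.15 (SE 0.30, edgeR adjusted p = 0.0122). Trem2 averaged 0.854 ± 0.33, 117 ± 176 and 92.8 ± 26.9 CPM in the same groups. Its difference at 16 against 8 weeks was log2 -0.34 with all libraries and 0.73 without 8-week replicate 3, which held 545 CPM, and neither was called (edgeR adjusted p = 0.676 and 0.0891). On the log2 scale, most of the rise of the macrophage transcripts had thus taken place at 8 weeks, and most of the rise of Epcam between 8 and 16 weeks.

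Of 9 bile duct transcripts, 6 rose at 8 weeks and 9 at 16 weeks against chow, and 7 rose at 16 against 8 weeks. Their sum was 14.2 to 21.4 CPM on chow, 18.01 to 72.6 CPM at 8 weeks and 65.0 to 187 CPM at 16 weeks. All 8 transcripts of lipid-associated macrophages rose at both times, and their sum was 68.3 to 88.5, 529 to 2044 and 1759 to 3949 CPM. All 7 transcripts of stellate cells and myofibroblasts also rose at both times, and 3 of them rose at 16 against 8 weeks. All 5 general macrophage transcripts and all 8 of T and NK cells rose at both times against chow, and their median log2 changes at 16 against 8 weeks were 0.03 and 0.02. Of 4 neutrophil transcripts tested, 3 rose at 8 weeks and 1 at 16 weeks, and of 4 endothelial ones 1 fell at both times. Over all genes, 30.8% and 29.4% were called higher than chow at 8 and 16 weeks, and 20.5% and 22.5% lower. At 16 against 8 weeks 10.6% of all genes were called higher. The neutrophil share at 16 weeks and the endothelial share at both times, 25.0% each, were thus near those of all genes. The marker lists and the 4 single markers were chosen with results of these data known.

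Within the 16-week group, Spp1 followed the bile duct transcripts from liver to liver. Epcam was 12.5, 15.4 and 17.95 CPM in replicates 1, 4 and 7, the 3 lowest livers in Spp1 (403, 536 and 586 CPM), and 31.3 to 52.5 CPM in the other 5, whose Spp1 was 927 to 1379.6 CPM. The rank correlation of Spp1 with Epcam was 0.905 (Spearman's rho, n = 8, exact two-sided permutation p = 0.00456, adjusted over 18 relations 0.0274). Pearson's r of log2(CPM + 1) was 0.992 (exact permutation p = 0.000149, adjusted 0.00201), and 0.987 without the 2 libraries farthest from the median of Epcam. Krt19 gave a rho of 0.905 with the same exact permutation p-values and an r of 0.983, which was 0.974 without the 2 farthest libraries. With replicate 1, 2, 3, 4 or 7 left out, the rho of 7 libraries was 0.857 for both transcripts and did not pass (exact permutation, adjusted p = 0.0612 to 0.0714).

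The 3 livers low in Spp1, Epcam and Krt19 at 16 weeks were those high in squamous epithelium transcripts. They were also the lowest in summed transcripts of lipid-associated macrophages (1759 to 2136 CPM, against 2412 to 3949 CPM). The same held for stellate cells and myofibroblasts (884 to 1005 CPM, against 1090 to 1585 CPM). In hepatocyte transcripts they were the highest (91630 to 99430 CPM, against 69250 to 86510 CPM). Sums of general macrophages, T and NK cells, neutrophils and endothelium did not divide in this way. Sets of 3 and 5 livers are too few for a correlation each. With values centred within each set and pairings exchanged only within sets, r was 0.949 for Spp1 with Epcam and 0.880 with Krt19 (exact permutation p = 0.00833 and 0.0125, adjusted 0.05 and 0.0563). The centred relations thus kept their direction, and the adjusted values were at or above the threshold.

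Spp1 also followed Trem2 at 16 weeks, with a rho of 0.929 (exact permutation p = 0.00223, adjusted 0.0274), and less closely Gpnmb, with a rho of 0.643 (exact permutation p = 0.0962, adjusted 0.192). Without replicate 1, 2, 3 or 7 the rho with Trem2 was 0.893 to 0.964 and did not pass (exact permutation, adjusted p = 0.05 to 0.0714). Centred within the sets, r was 0.817 for Trem2 (exact permutation p = 0.0306, adjusted 0.0917) and 0.156 for Gpnmb (exact permutation p = 0.732, adjusted 0.878). Whether the relations with Epcam and Gpnmb differ from each other was not tested.

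At 8 weeks, with all 8 libraries, the rho values stood in another order, and differences between markers or between groups were not tested. Spp1 had a rho of 0.857 with Gpnmb (exact permutation p = 0.0107, adjusted 0.0321), of 0.667 with Epcam (exact permutation p = 0.0831, adjusted 0.187), of 0.262 with Trem2 (exact permutation p = 0.536, adjusted 0.603) and of 0.024 with Krt19 (exact permutation p = 0.977). The highest liver in Spp1, replicate 2 with 440.4 CPM, was also the highest in Epcam with 13.0 CPM, and without it and replicate 1 the r with Epcam was 0.161. Centred within the sets, here of 2 and 6 livers, r was 0.863 with Gpnmb and 0.743 with Epcam (exact permutation, adjusted p = 0.0437 and 0.065). Replicate 3 had the lowest Spp1 of the group beside its highest Trem2 and Krt19. Without it the rho with Trem2 was 0.893 (n = 7, exact permutation, adjusted p = 0.0316), with Gpnmb 0.893 (exact permutation, adjusted p = 0.0316), with Epcam 0.821 (exact permutation, adjusted p = 0.0768) and with Krt19 0.536 (exact permutation, adjusted p = 0.292). Without replicate 1, 4, 5, 6, 7 or 8 the rho with Gpnmb was 0.786 to 0.857 and did not pass (exact permutation, adjusted p = 0.0714 to 0.1235). Among the 7 livers other than replicate 3, the relations of Spp1 with both macrophage transcripts therefore passed. That with Epcam did not, and the gap between them was not tested.

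The 5 chow libraries are under the 6 needed for a correlation. Epcam ran there from 1.14 to 1.72 CPM and Gpnmb from 0.174 to 0.699 CPM. The liver highest in Spp1, replicate 3 (65.9 CPM), was the highest in Epcam and Krt19 (3.91 CPM). Replicate 5, close to it in Spp1 (64.0 CPM), was the highest in Trem2 (1.31 CPM). Gpnmb was highest in replicate 1, the lowest in Spp1 (36.1 CPM). All these marker values are low, with 31 to 51 reads for Epcam.

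**Figure D2:**
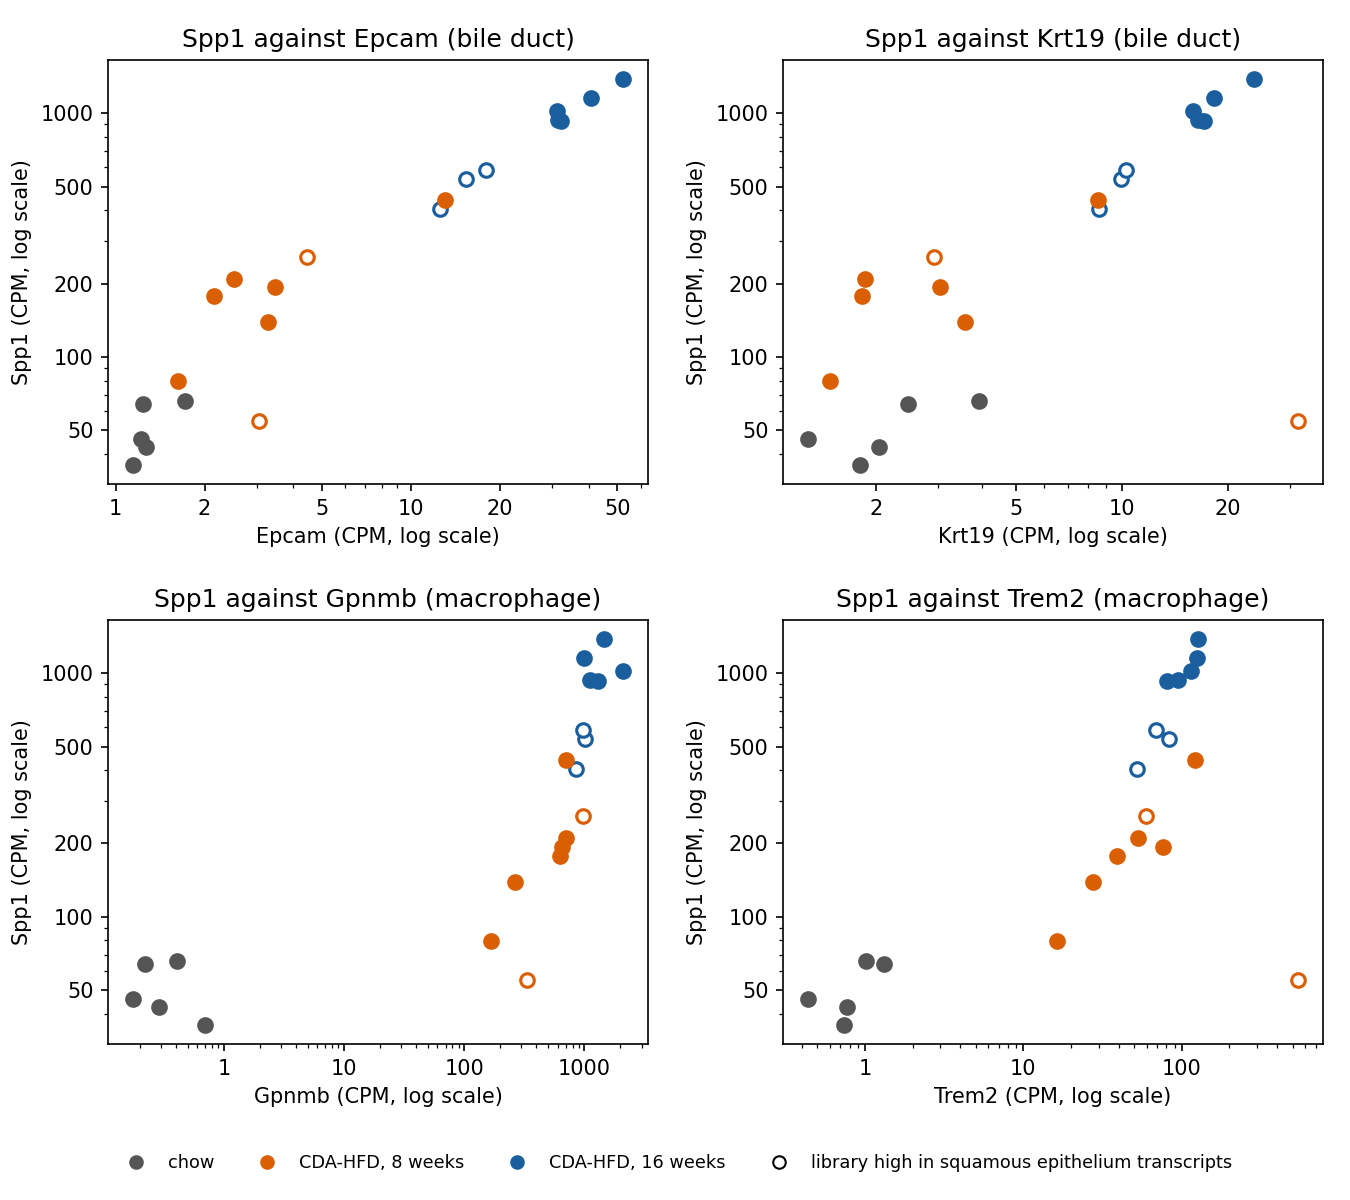
Spp1 against Epcam, Krt19, Gpnmb and Trem2, all in CPM on log axes, with 1 point per library and open points for libraries high in squamous epithelium transcripts. At 16 weeks Spp1 ranked with Trem2 (rho 0.929) and with Epcam and Krt19 (rho 0.905 each), at 8 weeks with Gpnmb (rho 0.857), and the open 8-week point at 54.8 CPM of Spp1 is replicate 3.

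The ratios of Spp1 to the markers show the same data by library. At 16 weeks Spp1 was 26.3 to 34.85 times Epcam in CPM, so that the highest ratio was 1.33 times the lowest, while Spp1 itself varied from 403 to 1379.6 CPM. On chow this ratio was 31.6 to 51.9 and at 8 weeks 17.9 to 83.4, so the 3 groups overlapped in it although Spp1 differed 17.0-fold between 16 weeks and chow. The ratio of Spp1 to Krt19 was 16.9 to 36.1 on chow, 1.73 to 113 at 8 weeks and 46.8 to 64.3 at 16 weeks. With Krt19, unlike Epcam, all 16-week livers thus lay above all chow livers.

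Against Gpnmb the ratio was 51.6 to 292 on chow, where Gpnmb was near absent, and it was 0.163 to 0.631 at 8 weeks and 0.475 to 1.16 at 16 weeks. Against Trem2 it was 48.7 to 106 on chow, 0.101 to 5.06 at 8 weeks and 6.48 to 11.57 at 16 weeks. All 16-week livers thus had more Spp1 per Trem2 than any 8-week liver, and the ranges with Gpnmb overlapped.

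**Figure D3:**
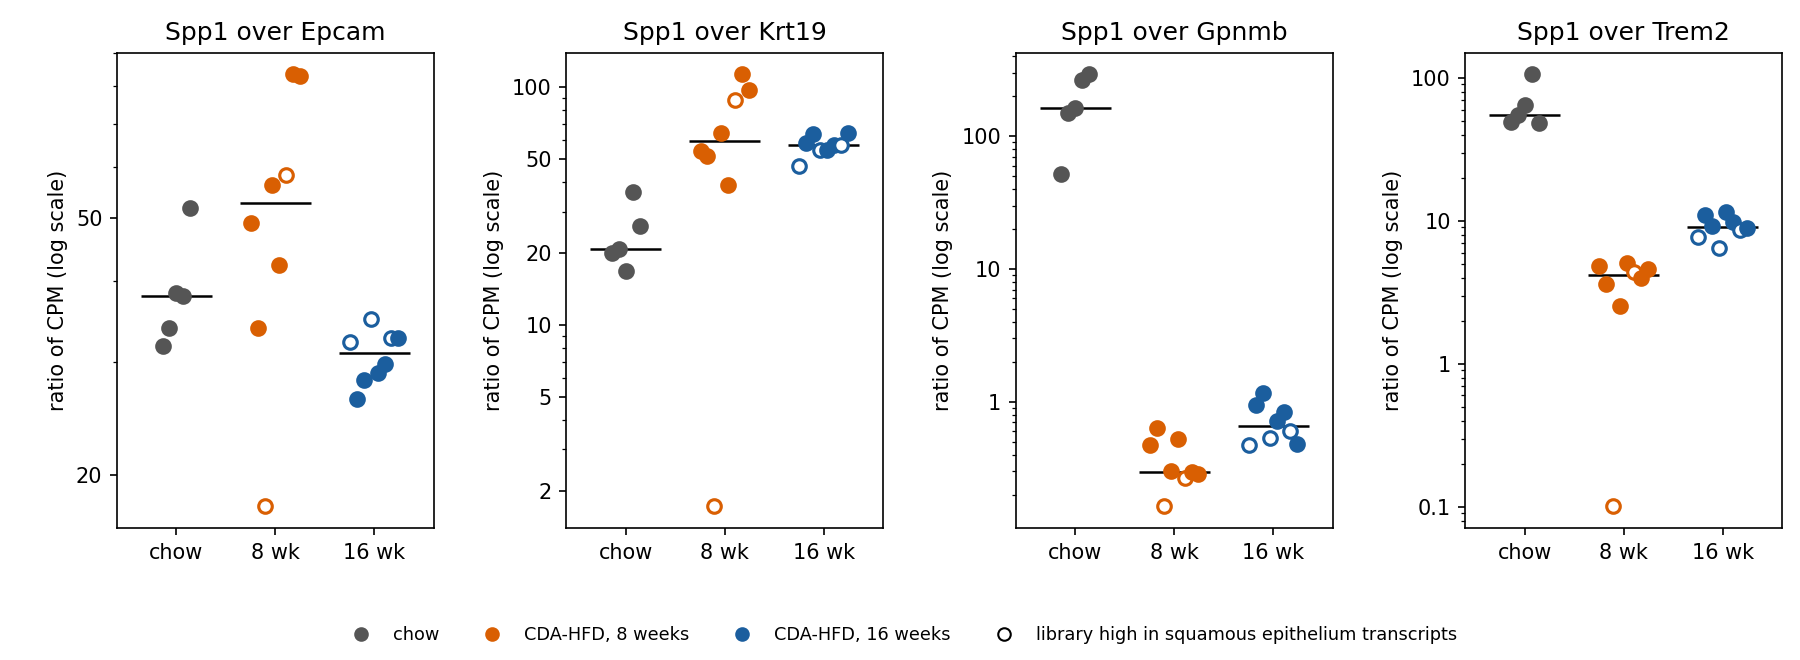
Ratio of Spp1 to Epcam, Krt19, Gpnmb and Trem2 (CPM over CPM, log axes) in each library, with a line at the group median and open points for libraries high in squamous epithelium transcripts. The ratio to Epcam had medians of 37.8, 52.7 and 30.95 on chow, at 8 weeks and at 16 weeks, and the ratio to Gpnmb 163, 0.298 and 0.654.

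With all libraries, Cd44 ranked with Gpnmb in both CDA-HFD groups. The rho was 0.857 at 8 weeks and 0.857 at 16 weeks (n = 8 each, exact permutation p = 0.0107 each, adjusted 0.0321), and centred within the sets r was 0.792 at 8 weeks and 0.787 at 16 weeks (exact permutation, adjusted p = 0.0437 and 0.194). Leaving out 1 library gave a rho of 0.786 to 0.893 in each group, which did not pass without replicate 1, 2, 4, 5, 6 or 7 at 8 weeks and without replicate 1, 2, 3, 4, 7 or 8 at 16 weeks (exact permutation, adjusted p = 0.0554 to 0.1235). Pearson's r of log2(CPM + 1) with Gpnmb was 0.635 at 8 weeks, which did not pass, and 0.857 at 16 weeks (exact permutation, adjusted p = 0.121 and 0.0171). Without the 2 libraries farthest from the median of Gpnmb, the rho was 0.829 in each group (n = 6, exact permutation p = 0.0583 each). With Epcam, Krt19 and Trem2 the rho of Cd44 was between -0.333 and 0.548 over both groups, and none of these relations passed after adjustment. Spp1 and Cd44 had a rho of 0.810 with each other at 8 weeks and 0.571 at 16 weeks (exact permutation, adjusted p = 0.056 and 0.272). At 8 weeks replicate 3 was the lowest in both, and without it the rho was 0.714 (exact permutation, adjusted p = 0.173).

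**Figure D4:**
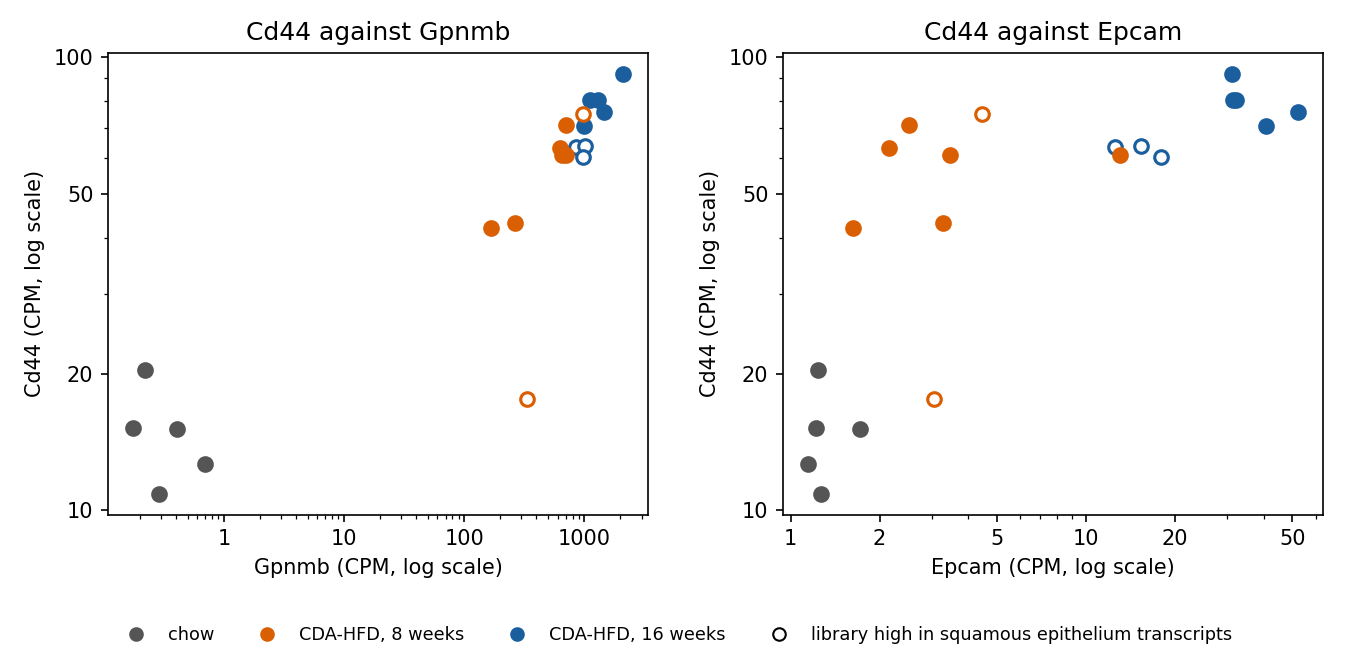
Cd44 against Gpnmb (left) and Epcam (right) in CPM on log axes, with 1 point per library and open points for libraries high in squamous epithelium transcripts. Within the 8-week and the 16-week group Cd44 ranked with Gpnmb (rho 0.857 each), and with Epcam the rho was 0.286 at 8 weeks and 0.476 at 16 weeks.

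The genes most like each member were taken over the 16 CDA-HFD libraries, as Spearman's rho of log2(CPM + 1) centred within each group, among 10586 genes with a mean of at least 5 CPM. Those nearest to Spp1 were Smoc2 (rho 0.979), a secreted calcium-binding matrix protein, Cdk1 (0.965), the mitotic kinase, Slc41a3 (0.965), Tes (0.962), Enoph1 (0.959) and Tspan3 (0.959). Epcam reached 0.821, Gpnmb 0.765, Trem2 0.479 and Krt19 0.382 by this measure. Without 8-week replicate 3 these were 0.879, 0.736, 0.796 and 0.679, so that Trem2 then stood above Gpnmb. Nearest to Cd44 were Egr2 (0.979), a zinc finger transcription factor, Myo1f (0.968), an unconventional myosin of leukocytes, Rab8b (0.968), Actr3 (0.965), a subunit of the actin-nucleating Arp2/3 complex, Sema4d (0.962) and Prkcd (0.962), and Gpnmb reached 0.941. Without 8-week replicate 3 the rho of the 12 named genes was 0.95 to 0.975. Smoc2 averaged 7.98, 30.5 and 72.3 CPM and Egr2 0.524, 9.46 and 13.8 CPM on chow, at 8 and at 16 weeks. The libraries share depth and composition with the members, and no p is given.

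The integrins that bind osteopontin rose in part. Of 10 integrin chains, 6 rose and 0 fell at 8 weeks against chow, 7 rose and 1 fell at 16 weeks against chow, and 3 rose and 1 fell at 16 against 8 weeks. Over all genes, 51.3%, 51.9% and 21.6% were called in these comparisons in either direction, and 20.5%, 22.5% and 11.0% were called lower, and the median log2 change of the chains was 0.68, 0.92 and 0.17, against 0.16, 0.03 and 0.00 over all genes. Itgb6, which pairs with Itgav on epithelium, averaged 0.144 ± 0.06 CPM on chow, 0.322 ± 0.36 CPM at 8 weeks and 2.61 ± 0.84 CPM at 16 weeks, and at 16 weeks it was higher than at 8 weeks by log2 2.94 with libraries that did not overlap (edgeR adjusted p = 0.000302), as were 2.58% of all genes in that direction. Itga8, the chain of stellate cells and mesenchyme that pairs with Itgb1, averaged 7.86 ± 0.97, 13.4 ± 4.39 and 48.5 ± 13.6 CPM, and the log2 change at 16 against 8 weeks was 1.86 (edgeR adjusted p = 4.59e-06). Itgb6 was not called at 8 weeks against chow (edgeR adjusted p = 0.113), while Itga8 had risen then by log2 0.77 (edgeR adjusted p = 0.00695).

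Itga4 and Itgb7, leukocyte chains that bind the second site, had risen at 8 weeks, by log2 1.38 and 1.78 (edgeR adjusted p = 0.000788 and 8.11e-05). Itgb5, a partner of Itgav, averaged 254 ± 217 CPM at 8 weeks on CDA-HFD against 92.6 ± 4.94 CPM on chow, and 177 ± 27.5 CPM without replicate 3, which held 788 CPM. Itgb3 fell to 3.95 ± 0.83 CPM at 16 weeks, against 5.82 ± 1.04 CPM on chow (log2 -0.56, edgeR adjusted p = 0.0223). That fall was log2 -0.46 and was not called without chow replicate 1, and it was log2 -0.02 and not called with total counts alone, a scaling that put the median log2 change of all genes at 0.56 in this comparison, against 0.03 with TMM. Itga5, 1 of the 7 chains that rose at 16 weeks against chow, lost its call in most settings that left out 1 library. Itgav itself and Itgb1, the chains shared by most pairs, were not called against chow at either time with all libraries. Without 8-week replicate 3, Itgav was called higher at 16 weeks than on chow (log2 0.33 in both fits, edgeR adjusted p = 0.0229 without that library and 0.0504 with it), and Itgb5 at 16 against 8 weeks (log2 0.36, edgeR adjusted p = 0.00992).

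Of 11 enzymes that cleave or modify osteopontin, 10 were tested. Of these 10, 7 rose and 0 fell at 8 weeks against chow, and 6 rose and 2 fell at 16 weeks against chow. At 16 against 8 weeks 3 rose and 2 fell. Over all genes, 51.3%, 51.9% and 21.6% were called in these comparisons in either direction. The median log2 changes of the enzymes were 0.98, 1.08 and -0.30, against 0.16, 0.03 and 0.00 over all genes. Mmp7, the matrilysin of reactive epithelium, which cleaves osteopontin within the second site, averaged 0.0822 ± 0.05 CPM on chow, 1.61 ± 2.11 CPM at 8 weeks and 22.8 ± 13.1 CPM at 16 weeks. Its log2 change over chow was 8.09 at 16 weeks, and it was higher by 3.92 at 16 than at 8 weeks (edgeR adjusted p = 3.96e-06 and 0.000624). Without 8-week replicate 3, which held 5.91 CPM, Mmp7 averaged 0.998 ± 1.30 CPM at 8 weeks, and it was higher by log2 4.53 at 16 than at 8 weeks (edgeR adjusted p = 5.18e-05). In the 16-week livers Mmp7 was 4.64, 8.32 and 11.5 CPM in replicates 1, 4 and 7 and 24.8 to 38.4 CPM in the others, which is the division seen for Spp1 and Epcam. Mmp2, a gelatinase of stellate cells, averaged 4.48 ± 0.87, 29.1 ± 12.7 and 74.0 ± 22.1 CPM, and Mmp12, the macrophage elastase, 0.359 ± 0.14, 292 ± 122 and 490 ± 106 CPM in the same groups.

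Ctsd, the lysosomal protease cathepsin D, rose at 8 weeks by log2 2.93, and by 1.88 without replicate 3, where it stood at 11792 CPM (edgeR adjusted p = 0.000414 and 7.49e-07). The liver's own proteases went the other way at 16 weeks. F2, the precursor of thrombin, fell to 1357 ± 164 CPM at 16 weeks, against 2228 ± 129 CPM on chow (log2 -0.72, edgeR adjusted p = 0.0042), and Plg, the precursor of plasmin, fell by 0.84 on the log2 scale (edgeR adjusted p = 0.000889). With total counts alone these falls were log2 -0.19 and -0.32 and were not called. Phex did not pass the filter.

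None of the 4 other genes of osteopontin's family passed the filter on low counts. Dmp1 reached at most 0.140 CPM, Dspp 0.0657 CPM and Ibsp 0.0175 CPM, and Mepe had no counts in any library. Spp1 was thus the member of its family with a measurable level in these livers.

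Of 9 other ligands and partners of Cd44, 5 rose and 0 fell at 8 weeks against chow, and 7 rose and 1 fell at 16 weeks against chow. At 16 against 8 weeks 3 rose and 1 fell. The shares called were 55.6%, 88.9% and 44.4%, against 51.3%, 51.9% and 21.6% over all genes. The median log2 changes were 0.73, 1.48 and 0.46. Vcan, the hyaluronan-binding proteoglycan versican, averaged 0.32 ± 0.31, 1.51 ± 0.95 and 2.31 ± 0.72 CPM, and Sele, the endothelial E-selectin, 0.174 ± 0.09, 1.03 ± 0.52 and 1.45 ± 0.41 CPM on chow, at 8 and at 16 weeks. Cd74, the receptor of Mif that signals through Cd44, rose by log2 2.88 at 8 weeks and by 2.33 at 16 weeks (edgeR adjusted p = 0.000208 and 0.000851), and the 8-week value was 2.04 without replicate 3, which held 4885 CPM. The genes that rose between 8 and 16 weeks were Tnfaip6, which carries protein chains onto hyaluronan, and the heparin-binding growth factors Fgf2 and Hbegf, by log2 1.32, 0.96 and 0.94 (edgeR adjusted p = 0.00597, 0.00494 and 0.00578). Lgals9 was the gene called lower at 16 weeks, both against chow and against 8 weeks. Against chow the change was log2 -0.28. That call was lost with other filters on low counts. It was also lost when 16-week replicate 2, 5, 6 or 8 or chow replicate 1, 2 or 4 was left out (log2 -0.28 to -0.25). With total counts alone the value against chow was log2 0.24.

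Among 11 genes of Cd44 splicing, shedding and linkage to the cytoskeleton, 4 rose and 3 fell at 8 weeks against chow. At 16 weeks 5 rose and 3 fell against chow, and 3 rose and 1 fell against 8 weeks. The shares called were 63.6%, 72.7% and 36.4%, against 51.3%, 51.9% and 21.6% over all genes. The median log2 changes were 0.25, 0.48 and 0.29. The 2 epithelial splicing regulators that keep variant exons in Cd44 went opposite ways. Esrp1 averaged 0.140 ± 0.06, 0.752 ± 0.78 and 3.24 ± 1.04 CPM on chow, at 8 and at 16 weeks, a log2 rise of 4.50 at 16 weeks against chow (edgeR adjusted p = 1.59e-05). Esrp2, the one known in adult hepatocytes, fell to 64.0 ± 8.87 CPM at 16 weeks, against 118 ± 8.20 CPM on chow (log2 -0.88, edgeR adjusted p = 6.18e-06), and was log2 -0.35 and not called with total counts alone. Ezr and Msn, the linkers ezrin and moesin, rose at 16 weeks by log2 2.03 and 1.72 (edgeR adjusted p = 2.32e-09 and 0.000398), while their relative Rdx (radixin) was lower by log2 -0.64 (edgeR adjusted p = 0.00901), and log2 -0.11 with total counts alone. Mmp14, a membrane protease that sheds Cd44, rose to 86.6 ± 12.6 CPM at 8 weeks, against 35.1 ± 2.90 CPM on chow (edgeR adjusted p = 3.35e-08). Without 8-week replicate 3, the genes called higher at 8 weeks than on chow were Esrp1, Adam10, Adam17, Mmp14, Ezr and Msn. Those called lower were Esrp2, Rdx and Nf2. Adam10 and Adam17 were then at log2 0.28 and 0.37 (edgeR adjusted p = 0.0437 and 0.00668).

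In the hyaluronan system, Hyal1 fell and Hmmr and Stab1 rose against chow at both times. Of 11 genes, 8 were tested, and 2 rose and 1 fell at 8 weeks and likewise at 16 weeks against chow, while 0 were called at 16 against 8 weeks by edgeR (2 at an unadjusted p under 0.05) and 2 by the DESeq2 Wald test. The shares called by edgeR were 37.5%, 37.5% and 0.0%, below the 51.3%, 51.9% and 21.6% over all genes. The median log2 changes were 0.27, 0.05 and -0.08. Without 8-week replicate 3, 4 genes rose at 8 weeks against chow, among them the endothelial hyaluronan receptors Lyve1 and Stab2 (log2 0.55 and 0.57, edgeR adjusted p = 0.0372 and 0.0245), and 1 was called at 16 against 8 weeks, Stab2, which was lower (log2 -0.59, edgeR adjusted p = 0.0202). Hyal1, a lysosomal hyaluronidase, fell to 25.4 ± 12.42 CPM at 8 weeks and 22.1 ± 6.32 CPM at 16 weeks, against 61.6 ± 10.5 CPM on chow (log2 -1.28 and -1.48, edgeR adjusted p = 0.002 and 0.000409). Hmmr, a hyaluronan-binding protein of the mitotic spindle, averaged 0.527 ± 0.16, 4.68 ± 1.90 and 7.49 ± 3.34 CPM on chow, at 8 and at 16 weeks. The synthases Has1 and Has2 did not pass the filter, at 0.141 and 0.173 CPM at most. Stab1, a scavenger receptor of sinusoidal endothelium, was higher by log2 0.70 at 8 weeks and 0.58 at 16 weeks (edgeR adjusted p = 0.0125 and 0.0321), and it was 234 CPM in 8-week replicate 3, without which the 8-week value was 0.41. The 16-week call of Stab1 was lost with DESeq2 size factors and when 16-week replicate 5 or 8 or chow replicate 1, 2 or 3 was left out, where the value was log2 0.54 to 0.56.

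**Figure D5:**
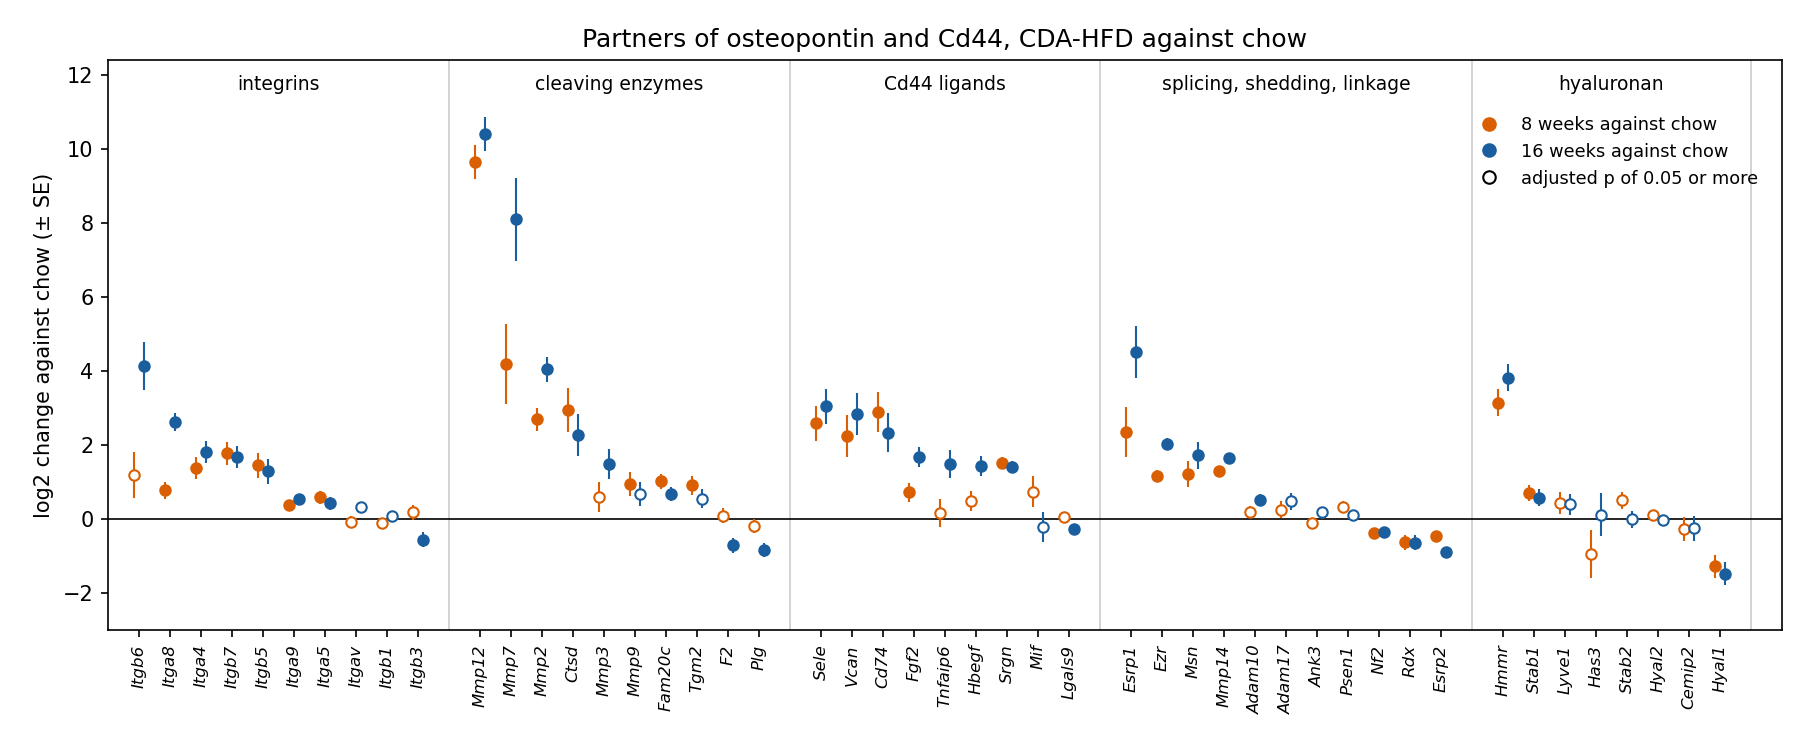
Log2 change against chow with its SE at 8 weeks (left point of each pair) and 16 weeks (right point) for the tested partner genes of osteopontin and Cd44, with open points where the adjusted p was 0.05 or more. Mmp12 and Mmp7 stand highest at log2 10.39 and 8.09 at 16 weeks, Itgb6 and Esrp1 are at 4.13 and 4.50, and Hyal1 is lowest at -1.48.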

How the data were processed

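Per the labels, total RNA of mouse livers went into a stranded kit. The values are unnormalized read counts for Ensembl genes as the authors deposited them, with GRCm38 as the build in the submitters' processing notes. No source used here names the aligner, the counter, its strand setting or the annotation release. The 21 columns held the same values as the 21 single-sample files, and 0 columns lacked a sample. Symbols and exon lengths came from GENCODE M21 (99.72% of IDs matched), promoters from RefSeq. Reads of Spp1 and of the overlapping gene Gm42793 on its strand could be split by the counting.

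Counts were filtered with filterByExpr (17104 genes, 99.961% of counts), scaled with TMM and fitted together in 1 edgeR 4.0.16 quasi-likelihood model (glmQLFit and glmQLFTest, R 4.3.3, limma 3.58.1). There were 3 contrasts, with Benjamini-Hochberg adjustment over all genes and a threshold of 0.05. SEs were computed from the log2 change and its F statistic. DESeq2 1.42.0 was an alternative. Relations within groups used Spearman's rho and Pearson's r of log2(CPM + 1), with exact two-sided permutation of all 40320 pairings in Python 3.11.15 (smallest p 4.96e-05) and adjustment over 18 relations. The fit was tested on simulated counts. Replicate numbers follow the listing order, and nothing in the labels says how samples of a group were raised, so p-values measure the spread between these samples. No counting intervals are given, because reads were not tied to single molecules.

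The members, the 6 partner lists (56 genes), the 13 marker lists, the set of 5 libraries high in squamous transcripts and the tests were chosen with earlier results of these data known. From each partner list the called genes with the largest rise and fall in each comparison could be named, up to 3 each way, and other members by their values. The alternatives were other scalings and filters, the DESeq2 Wald test, 2 groups per fit, the 20 most abundant genes left out, libraries left out, and other measures of correlation. Centring within sets was added after the values were seen.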

Additional observations from a re-analysis of the deposited data

Results flagged for a closer look

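Among 18 combinations of gene and group tested for a library far from the others, 4 were found, where chance gives about 1 in 20. Epcam was 1.72 CPM in chow replicate 3, against 1.14 to 1.26 CPM in the other chow livers. Epcam was 13.04 CPM in 8-week replicate 2, against 1.62 to 4.43 CPM in the other 8-week livers, and that liver was also the highest of its group in Spp1. Krt19 was 31.71 CPM in 8-week replicate 3, against 1.47 to 8.56 CPM in the others, and Trem2 was 545.1 CPM in the same library, against 16.4 to 122 CPM. Replicate 3 was the library highest in squamous epithelium and muscle transcripts. It also stood apart more widely. Across 10237 genes its log2 ratio to the median of the other 8-week libraries had an SD of 1.504, against 0.253 to 0.501 in the others. Its TMM factor was 0.4955, against 0.8836 to 1.167. Its 5 hepatocyte transcripts summed to 335500 CPM, against 91580 to 185300 CPM. The part of these differences in the results was not tested beyond the values given without this library.

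The change from chow differed between the 2 times on the diet for 3 of the genes followed, tested as 16 against 8 weeks, which is the difference of the 2 changes since both share the chow livers. The difference was log2 2.16 for Spp1, 2.80 for Epcam and 1.15 for Gpnmb (edgeR adjusted p = 0.000257, 5.51e-05 and 0.0122).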

How the results depend on the processing

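The log2 changes of Spp1 and Cd44 kept their direction and their side of the threshold in 179 of 180 settings. Cd44 at 16 against 8 weeks was called, at log2 0.49, without the 5 libraries high in squamous transcripts. The number of genes called at 16 against 8 weeks was 3703, and it was 2226 with only the 2 groups fitted, 5579 without those 5 libraries and 2248 to 5132 with 1 library left out. Among 2696 settings of single list genes, 2598 kept their call, 95 lost it and 3 changed sign, all with total counts alone: Lgals9 (0.24 at 16 weeks over chow, 0.0597 at 16 over 8 weeks) and Nf2 (0.18 at 16 weeks over chow). Counts of called list members moved by over 1.5 times in 14 of 540 settings. Total counts alone moved the median log2 change of all genes to 0.28, 0.56 and 0.38, from 0.16, 0.03 and 0.00. No paired analysis was possible because the labels give no replicate numbers shared between groups.

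The relations at n = 8 depended more on the setting. At 8 weeks Spp1 with Epcam passed with total counts alone (rho 0.857) and with r of CPM (0.875). Spp1 with Gpnmb did not pass with r of log2 values (0.761), with r of CPM (0.677), without the 2 farthest libraries (0.829) or with most single libraries left out (0.786 to 0.857). Spp1 with Krt19 changed sign with r of log2 values (-0.308), r of CPM (-0.289), centring within sets (-0.177) and single libraries left out (-0.214 to 0.536). Spp1 with Trem2 changed sign with r of log2 values (-0.145) and of CPM (-0.308), and ran from 0.143 to 0.893 with 1 library left out. At 16 weeks, without the 2 farthest libraries, Spp1 had a rho of 0.771 with Epcam, 0.771 with Krt19 and 0.829 with Trem2, none past the threshold after adjustment. With 1 library left out these were 0.857 to 0.964, 0.857 to 0.964 and 0.893 to 1.0. Centred within sets they were 0.949, 0.880 and 0.817.

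Weaker relations of Cd44 changed sign too. At 8 weeks, without the 2 farthest libraries, Cd44 had 0.086 with Krt19 and 0.143 with Trem2, and with Trem2 -0.286 to 0.464 without 1 library (0.036 without replicate 2 or 4). At 16 weeks it had -0.086 with Epcam and -0.086 with Krt19 without the 2 farthest libraries, and centred within sets -0.632 with Epcam, -0.548 with Krt19, -0.202 with Trem2 and -0.444 with Spp1. The causes of these differences were not tested.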

Other observations

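Libraries of 1 group differed in how their counts were spread over short and long genes. Across 10237 genes at 8 weeks, the log2 ratio of a library to the median of the other libraries of its group correlated with exon length at a rho of -0.594 in replicate 4 to 0.602 in replicate 8. At 16 weeks the values ran from -0.610 in replicate 3 to 0.533 in replicate 5 across 10516 genes, and on chow from -0.239 to 0.164 across 9689 genes. Genes are not independent replicates, and no p is given. Spp1 is short (1.648 kilobases of exon) and Cd44 long (6.776 kilobases). Of the markers, Epcam and Krt19 are shorter than Gpnmb and Trem2. At 16 weeks Epcam and Krt19 averaged 13.3 and 8.09 CPM per kilobase for 29.3 and 15.0 CPM. Gpnmb and Trem2 averaged 189 and 18.8 CPM per kilobase for 1230 and 92.8 CPM. The libraries highest in Spp1 at 8 and at 16 weeks, replicate 2 in each group, had -0.586 and -0.355. The part of gene length in the liver-to-liver values, and in the relations between genes, was not tested.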
